A study of Homo sapiens with 24 samples.

Results

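DNA replication needs proteins that license and open origins, copy both strands and supply nucleotides, and the mRNAs of 44 genes for them and for entry into S phase were examined in PC9 cells. The genes were chosen by name, with earlier results of these data known, and all 44 are in the table of 37411 genes. The 44 comprise 11 genes of the MCM helicase and origin licensing, 5 of helicase activation, 16 of the sliding clamp, its loader, the polymerases and the lagging strand, 4 of nucleotide supply, 3 of G1/S control, and 5 of chromatin assembly, histone mRNA and fork signalling. All 44 passed the filter on low counts, which kept 17409 genes for testing. PC9 is an established human non-small cell lung cancer line, grown here in RPMI 1640. ISRIB is a small molecule that blunts the integrated stress response by acting on the guanine nucleotide exchange factor eIF2B. RNA-seq libraries were made from cells in medium with asparagine (complete) or without it, given 200 nM ISRIB or the vehicle (0.004% DMSO), for 6 h or 24 h before one endpoint. These 8 groups had 3 biological replicates each, 24 libraries in all, and every dish was rinsed and given fresh medium when the treatment began. The groups differ in asparagine, drug and time alone, per the labels, and all come from this 1 line, with no genetic change among them.

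Origins are licensed in G1, when ORC, CDC6 and CDT1 load the MCM helicase. Cyclin E with CDK2 and the E2F transcription factors then drive entry into S phase, and CDC45 and the GINS complex turn the loaded helicase into the active one. Polymerases held by the PCNA clamp copy DNA coated with RPA, ribonucleotide reductase and thymidylate synthase supply deoxynucleotides, and many of these genes are known targets of E2F. Asparagine is a non-essential amino acid made by asparagine synthetase, and its lack can switch on the kinase GCN2 and the transcription factor ATF4, which ISRIB counters downstream.

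Promoters were examined because the genes are known as E2F targets. RefSeq promoter sequences on GRCh38.p14, from 250 bases before to 50 after a start, were found for 39 of the 44 genes (50 entries). An E2F site was searched as TTTCCCGC, TTTGGCGC, TTTCGCGC or TTTGCCGC, an NF-Y site as CCAAT, the cell-cycle element of mitotic genes as TTTGAA, and the amino acid response element as TGATGNAA, each on both strands, with overlapping matches counted apart. At least 1 E2F match was present for 20 of the 39 genes (51.3%), against 4.0% of 27305 genes with a promoter entry. By entry the shares were 42.0% and 3.3% of 35116. CCAAT was found for 23 of 39 (59.0%, against 39.7%), TTTGAA for 1 (2.6%, against 18.2%) and TGATGNAA for 0 (0.0%, against 4.5%). A match describes letters and not a bound site. The 250 bases before the start follow for the 4 genes whose response to withdrawal differed between ISRIB and vehicle at 24 h, and for MCM6, which had the most E2F matches. For MCM7, which has 3 entries, the start farthest upstream is shown. Capitals mark E2F and CCAAT matches, with GCGGGAAA and the like or ATTGG where the match is on the other strand.
MCM2 (chr3:127598161-127598410, plus strand): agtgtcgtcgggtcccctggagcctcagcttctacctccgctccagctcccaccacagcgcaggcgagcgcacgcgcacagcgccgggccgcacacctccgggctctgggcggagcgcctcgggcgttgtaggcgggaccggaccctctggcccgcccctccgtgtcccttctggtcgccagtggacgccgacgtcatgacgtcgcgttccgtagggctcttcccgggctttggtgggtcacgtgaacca
MCM7 (chr7:100101398-100101647, minus strand): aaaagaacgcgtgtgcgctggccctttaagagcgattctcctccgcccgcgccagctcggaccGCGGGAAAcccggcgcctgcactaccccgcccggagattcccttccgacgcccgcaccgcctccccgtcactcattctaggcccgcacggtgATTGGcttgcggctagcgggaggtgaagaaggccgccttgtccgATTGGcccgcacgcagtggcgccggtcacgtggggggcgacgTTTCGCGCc
RPA1 (chr17:1829755-1830004, plus strand): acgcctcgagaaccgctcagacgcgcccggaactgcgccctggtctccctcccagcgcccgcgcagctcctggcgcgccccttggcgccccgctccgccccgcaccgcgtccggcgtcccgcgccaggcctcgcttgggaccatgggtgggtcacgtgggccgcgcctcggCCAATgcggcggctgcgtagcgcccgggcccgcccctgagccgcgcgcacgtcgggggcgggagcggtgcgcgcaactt
RRM1 (chr11:4094435-4094684, plus strand): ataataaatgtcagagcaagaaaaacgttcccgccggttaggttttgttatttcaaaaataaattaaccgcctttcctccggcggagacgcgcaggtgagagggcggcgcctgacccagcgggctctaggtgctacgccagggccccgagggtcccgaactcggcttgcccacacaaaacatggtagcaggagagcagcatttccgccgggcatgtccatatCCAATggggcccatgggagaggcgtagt
MCM6 (chr2:135876444-135876693, minus strand): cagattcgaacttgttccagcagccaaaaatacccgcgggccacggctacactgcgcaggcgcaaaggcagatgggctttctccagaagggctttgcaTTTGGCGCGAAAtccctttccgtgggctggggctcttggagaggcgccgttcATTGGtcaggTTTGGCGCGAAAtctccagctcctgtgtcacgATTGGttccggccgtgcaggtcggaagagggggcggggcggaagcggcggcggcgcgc
MCM7 held E2F matches that begin 187 and 9 bases before its start, and MCM6 held 4, in 2 overlapping pairs. MCM2 had 0 matches in this window and 2 in the 50 bases after its start. RPA1 and RRM1 had no E2F match in the whole entry and 1 CCAAT match each in the window shown, 79 and 28 bases before the start. The other 2 entries of MCM7 had no E2F match. These 4 genes were chosen by their response, so their motifs are given as a description.

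Each library held 16737384 to 27495861 counts, and values below are CPM, counts scaled to library size with TMM factors. Asparagine synthetase, ASNS, checks the medium and the drug. At 6 h its mean was 28.99 ± 2.11 CPM (SD, n = 3) with asparagine and vehicle, 166 ± 13.6 without asparagine and 26.6 ± 3.34 without asparagine but with ISRIB. At 24 h the same groups had 27.2 ± 1.58, 57.1 ± 2.39 and 18.0 ± 0.774 CPM. ATF4 went from 626 ± 50.2 to 1106 ± 71.8 CPM on withdrawal at 6 h, with 559 ± 89.5 in ISRIB. The 7 epithelial markers lay between 271 and 4764 CPM. Of 11 markers of blood cells, fibroblasts and endothelium 8 stayed under 1 CPM in every library. The summed level of all 11 was 29.1 to 63.9 CPM in the 6 h groups and 13.1 to 19.9 CPM at 24 h, with CDH5 the main part at 6 h. CDH5 was lower at 24 h than at 6 h in each medium and drug, and its part in the results below was not tested. CD3E, COL3A1 or DCN was at 0 in all 3 libraries of 6 of the 8 groups. COL1A1 (5.48 ± 1.26 to 10.7 ± 2.08 CPM) and PECAM1 (2.90 ± 0.575 to 0.958 ± 0.33 CPM) moved with ISRIB without asparagine at 24 h, and their part in the results below was not tested. Libraries also differed in how counts depended on the GC content of transcripts, from -0.38 to 0.22 log2 per 10 points of GC. The most negative were complete-ISRIB 24 h replicate 3, no-asparagine ISRIB 6 h replicate 3 and complete-ISRIB 6 h replicate 1, called the low-slope libraries below. The genes described here span 38.4% to 65.8% GC, so results with this trend removed, or without these 3 libraries, are given beside those they bear on.

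The genes were well expressed. Their median was 76.6 CPM, against 15.3 over all genes tested. Levels of different genes are compared per kilobase of annotated exon. PCNA, the sliding clamp, had the highest at 331 CPM per kb, and TK1 (83.3), MCM7 (79.3) and RRM2 (78.6) followed. PRIM2, the large primase subunit (4.20), and POLE2, an accessory subunit of polymerase epsilon (4.49), had the lowest. Subunits of one complex were unequal, with MCM2 to MCM7 between 16.9 (MCM5) and 79.3 (MCM7) CPM per kb, the GINS genes between 6.71 (GINS3) and 20.4 (GINS1), and RFC2 to RFC5 between 16.7 (RFC5) and 30.4 (RFC2). Exons of 20 genes overlap exons of another gene in GENCODE 29, over 20% of the exon length in 7 (MCM2, GINS4, POLA2, PRIM1, RRM2, TYMS and CCNE2). Whether the counting used strand is not given in the sources used here, so for these part of the reads may be a neighbour's.

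Group means of a gene differed by 1.06-fold (MCM4) to 1.86-fold (CDT1) between its lowest and highest group, with a median of 1.43-fold. In no comparison of 2 groups did any of the 44 reach a 2-fold change. In 17 genes the highest of the 8 group means was in ISRIB without asparagine at 6 h, and in 12 in ISRIB without asparagine at 24 h. The lowest was in complete medium with vehicle at 24 h in 14. These counts were not made over all genes tested, so they are not read as particular to the 44. Summed over the 44 genes, the level was highest in ISRIB without asparagine at 6 h (5414 ± 228 CPM) and lowest in complete medium with vehicle at 24 h (4455 ± 81.8 CPM). The highest group ran from 5185 to 5640 CPM and overlapped complete medium with vehicle at 6 h (4768 to 5265 CPM). Its top value, 5640 CPM, was that of replicate 3, 1 of the low-slope libraries. Of the 44, 28 passed the test in at least 1 of the 12 comparisons of 2 groups, as did 55.8% of all genes tested. The 16 that passed in none were MCM4, MCM5, MCM6, GINS2, GINS4, PCNA, RFC2, POLA1, POLA2, PRIM1, POLD1, POLE2, TYMS, TK1, CHAF1B and CLSPN. PCNA, for instance, stood at 431, 458 and 472 CPM in complete medium with vehicle at 6 h and at 450.4, 521 and 531 CPM without asparagine in ISRIB at 24 h.

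**Figure D1:**
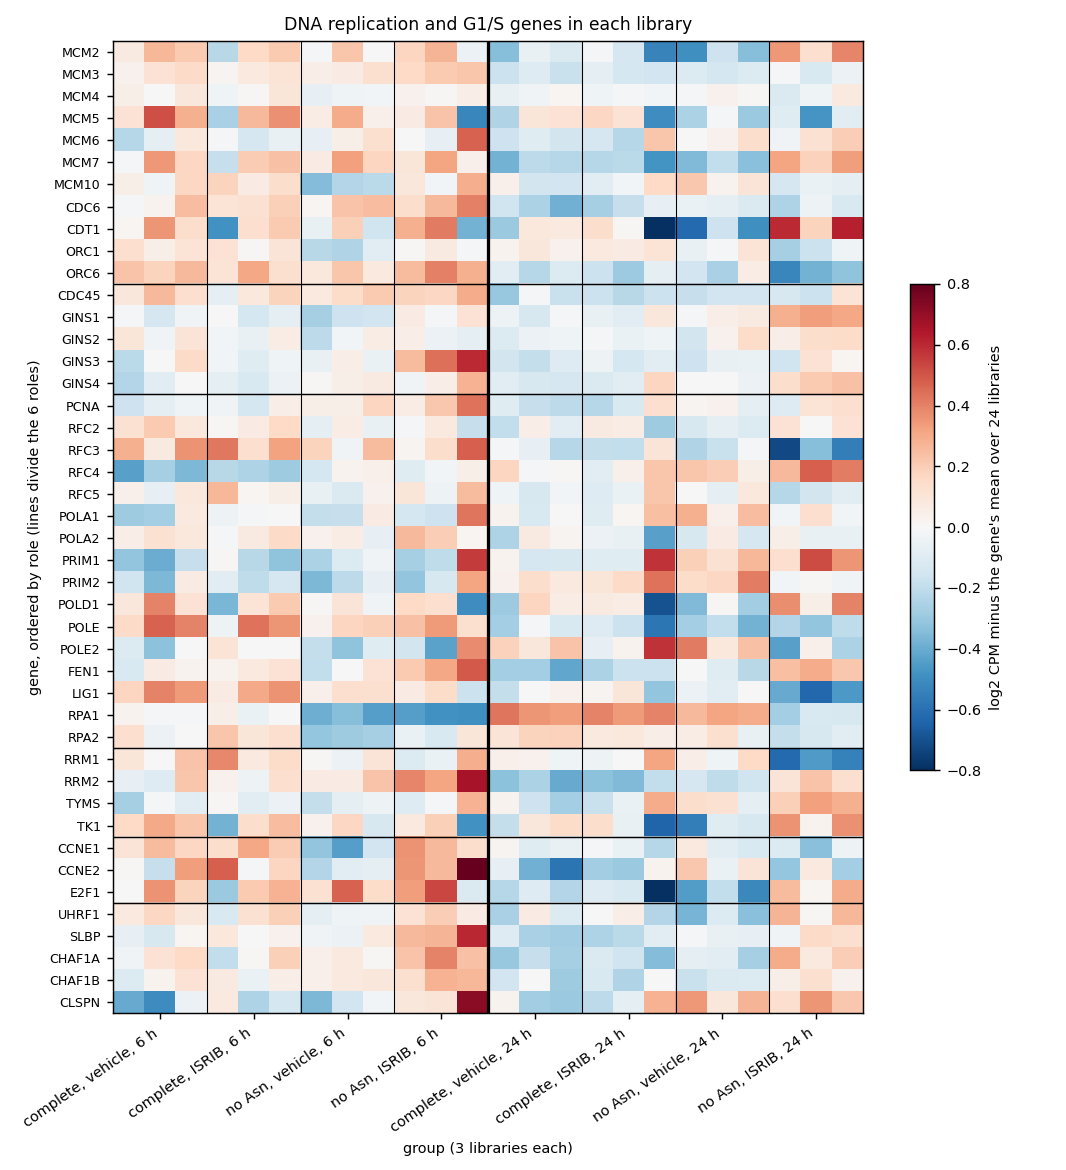
Each row is a gene and each column a library, grouped by condition with 6 h left of the thick line and 24 h right of it; colour is log2 CPM minus the gene's mean over the 24 libraries, and colours stop at 0.8 in size. RPA1 is low in the 6 libraries without asparagine at 6 h, RRM1 and RFC3 are low in the 3 libraries of ISRIB without asparagine at 24 h, and CDT1, E2F1, TK1 and POLD1 are low in complete-ISRIB 24 h replicate 3, a library with a strongly negative GC slope.

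After 6 h without asparagine in vehicle, 5 of the 44 genes fell and 1 rose, against 1.26% and 3.31% of all genes tested. The falls were in single-strand DNA binding (RPA1, RPA2), the G1/S cyclin CCNE1, origin recognition (ORC1) and origin firing (MCM10), and the rise was in the clamp loader subunit RFC4. The median log2 fold change of the 44 was -0.072, against 0.005 over all genes, and -0.019 with the GC trend removed. The median deviation of the 44 ran from 0.014 to 0.111 in the libraries with asparagine and from -0.058 to 0.036 without. These ranges overlapped, so the median is not read as a shift of the list. RPA1, the large subunit of the RPA complex, had 163, 158 and 158 CPM with asparagine and 122, 126 and 118 CPM without it. It fell by 0.39 on the log2 scale (SE 0.063, adjusted p = 0.000359; quasi-likelihood F test of edgeR, Benjamini-Hochberg over all genes tested). CCNE1, cyclin E1, had 21.9, 24.2 and 22.8 CPM with asparagine and 16.3, 15.00 and 18.3 CPM without, a fall of 0.47 (SE 0.10, adjusted p = 0.00727) and the lowest log2 fold change of the 44. For ORC1, the largest origin recognition subunit, the values were 82.8, 77.8 and 81.3 CPM and 64.6, 63.8 and 70.8 CPM (fell by 0.28, SE 0.074, adjusted p = 0.0281). RPA2, the middle RPA subunit, had 23.3, 20.5 and 21.2 CPM and 17.1, 17.4 and 17.6 CPM and fell by 0.32 (SE 0.084, adjusted p = 0.0289). MCM10, which helps to fire the loaded helicase, had 99.7, 94.5 and 108 CPM and 76.2, 82.4 and 83.2 CPM and fell by 0.32 (SE 0.09, adjusted p = 0.0408). In each of these 5 the 3 libraries without asparagine lay below the 3 with it. RFC4 went the other way, from 56.3, 63.4 and 59.3 CPM to 69.00, 77.5 and 78.5 CPM, a rise of 0.33 (SE 0.09, adjusted p = 0.0359), also without overlap. Genes far from the threshold included GINS3 (29.3, 33.9 and 37.6 CPM against 32.5, 35.3 and 32.7 CPM) and TYMS (52.8, 62.7 and 59.8 CPM against 55.5, 59.98 and 61.6 CPM), whose groups overlapped. Only RPA1 passed with each of the 6 libraries left out in turn, and the count of 6 became 1 without no-asparagine vehicle 6 h replicate 2, 2 without complete-vehicle 6 h replicate 1 or 3 and 3 without no-asparagine vehicle 6 h replicate 1 or 3. All 6 passed with the GC trend removed, and 8 in all.

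ISRIB without asparagine at 6 h raised 5 of the 44 genes against its vehicle and lowered 0, where 0.551% of all genes rose and 1.64% fell. Its vehicle libraries are the treated ones of the withdrawal comparison above. They were CCNE1, MCM10, GINS3 of the helicase activator, SLBP, which binds the stem-loop of histone mRNAs, and FEN1, the flap endonuclease of the lagging strand. A log2 fold change above 0 was seen for 37 of the 44, with a median of 0.15 (0.008 over all genes), or 0.12 with the GC trend removed. The share of all genes above 0 was not counted, and genes of the same libraries are not independent. Median deviations of the 44 were 0.089, 0.157 and 0.244 in the ISRIB libraries, replicate 3 being highest, and -0.058 to 0.036 in vehicle. CCNE1 had 16.3, 15.00 and 18.3 CPM in vehicle and 26.1, 24.4 and 22.4 CPM in ISRIB, a rise of 0.56 (SE 0.10, adjusted p = 0.00244). GINS3 rose by 0.45 (SE 0.099, adjusted p = 0.0117), from 32.5, 35.3 and 32.7 CPM to 40.4, 46.02 and 51.2 CPM. SLBP had 98.9, 97.7 and 107 CPM in vehicle and 121, 122 and 153 CPM in ISRIB (rose by 0.39, SE 0.088, adjusted p = 0.0178). In all 3 genes no library in vehicle reached the lowest in ISRIB. MCM10 went from 76.2, 82.4 and 83.2 CPM to 103, 95.1 and 118 CPM (rose by 0.39, SE 0.091, adjusted p = 0.0201), and FEN1 from 121, 138 and 149.8 CPM to 160.1, 171 and 195 CPM (rose by 0.36, SE 0.088, adjusted p = 0.0276), again without overlap. RPA1 had 122, 126 and 118 CPM in vehicle and 118, 115 and 114 CPM in ISRIB and did not pass (log2 fold change -0.081, SE 0.063, adjusted p = 0.758). The largest log2 fold change was that of cyclin E2, CCNE2, at 0.62 (SE 0.17, adjusted p = 0.0597), which did not pass: 20.8, 23.02 and 23.3 CPM against 31.3, 29.3 and 43.05 CPM. RFC4 (69.00, 77.5 and 78.5 against 71.3, 75.1 and 78.8 CPM) and E2F1, the founding E2F factor (93.5, 119.5 and 95.4 against 108, 124 and 79.3 CPM), lay farthest from the threshold. No-asparagine ISRIB 6 h replicate 3 gave the highest value of its group for GINS3, SLBP, MCM10, FEN1 and CCNE2, and it is 1 of the 3 libraries with the most negative GC slope. Without those 3 libraries 4 of the 5 passed, and the log2 fold change of FEN1 was 0.29 (adjusted p = 0.0714). Only CCNE1 passed with each library left out, and the count of 5 became 1 without no-asparagine ISRIB 6 h replicate 3 or no-asparagine vehicle 6 h replicate 1 and 2 without no-asparagine vehicle 6 h replicate 2. With the GC trend removed 10 passed, all higher, among them 4 of the 5, FEN1 being the exception (0.41, adjusted p = 0.0564). In a fit of these 6 libraries alone 0 of the 44 passed. Shares of all genes tested were not counted in these alternative fits. With replicate numbers as a block, which pair these libraries by their correlations, GINS1 (adjusted p = 0.0492) and the reductase subunit RRM2 (adjusted p = 0.0287) passed as well.

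Withdrawal in the presence of ISRIB at 6 h compares the same treated libraries with complete medium in ISRIB, and its values are set beside the others without counting shared genes. GINS3, RRM2 and SLBP rose and RPA1 fell, 3 and 1 of the 44, against 1.63% and 0.666% of all genes. RPA1 had 165, 154 and 159.9 CPM with asparagine and 118, 115 and 114 CPM without it, both in ISRIB, and fell by 0.47 (SE 0.063, adjusted p = 0.000164). The fall of RPA1 in vehicle was 0.39, and the difference between the 2 responses was -0.081 (SE 0.088, adjusted p = 1). RRM2, the small subunit that limits ribonucleotide reductase, had 422, 399 and 451 CPM and 539, 511 and 651 CPM and rose by 0.42 (SE 0.094, adjusted p = 0.0171). GINS3 had 33.4, 31.8 and 33.1 CPM and 40.4, 46.02 and 51.2 CPM (rose by 0.49, SE 0.099, adjusted p = 0.00811), and SLBP had 107, 101 and 103 CPM and 121, 122 and 153 CPM (rose by 0.35, SE 0.088, adjusted p = 0.0365). None of these 4 pairs of groups overlapped, as was so for 12 of the 44, passed or not. The share of all genes without overlap was not counted. MCM10 had 109, 101 and 107 CPM with asparagine and 103, 95.1 and 118 CPM without, and RFC5 had 64.9, 54.5 and 55.9 and 57.7, 52.6 and 64.4 CPM, so the groups of both overlapped. The count of 4 became 1 without complete-ISRIB 6 h replicate 2 or no-asparagine ISRIB 6 h replicate 3 and 2 without complete-ISRIB 6 h replicate 1, and 0 in a fit of the 6 libraries alone. RPA1 was the 1 gene that passed without the 3 low-slope libraries. With the GC trend removed 10 passed, 8 higher and 2 lower, and the share of all genes in that fit was not counted.

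Whether ISRIB changed the response to withdrawal is tested by the interaction of medium and drug. At 6 h 0 of the 44 genes passed in edgeR's quasi-likelihood test, where the response of 0.0574% of all genes was higher and of 0.661% lower with ISRIB. At unadjusted p below 0.05 there were 9 of the 44, against 5.48% of all genes, and DESeq2 called 1 of the 44 and 183 genes in all. CCNE1 had a difference of 0.51 (SE 0.15, adjusted p = 0.184) and GINS3 of 0.49 (SE 0.14, adjusted p = 0.184). With the GC trend removed the CCNE1 difference was 0.49 (adjusted p = 0.0346) and MCM10 passed as well, at 0.33 (adjusted p = 0.0496). In complete medium ISRIB changed 0 of the 44 genes at 6 h and 0 at 24 h, and 0.0% of all genes at either time. None of the 44 had an unadjusted p below 0.05 in either, against 1.17% and 1.42% of all genes, and DESeq2 called 0 genes. Log2 fold changes ran from -0.20 (POLD1) to 0.21 (CLSPN) at 6 h and from -0.17 (TK1) to 0.23 (PRIM1) at 24 h. PRIM2 (17.4, 15.1 and 20.3 CPM in vehicle, 18.3, 16.8 and 17.6 CPM in ISRIB) and RPA1 (163, 158 and 158 and 165, 154 and 159.9 CPM) at 6 h, and MCM4 (266, 272 and 279.5 and 270.2, 275 and 272 CPM) and LIG1 (84.7, 96.8 and 99.1 and 98.3, 104 and 77.9 CPM) at 24 h, were nearest to no difference.

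After 24 h without asparagine in vehicle 0 of the 44 genes passed, and of all genes 0.00574% rose and 0.0% fell. The unadjusted p was below 0.05 for 4 of the 44 and for 7.3% of all genes, shares near each other, and DESeq2 called none of them and 3 genes in all. CCNE1, lower at 6 h, had 20.7, 19.03 and 19.5 CPM with asparagine and 21.5, 19.2 and 18.7 CPM without, and RPA1 had 215, 205 and 202 and 191, 199 and 196 CPM (log2 fold change -0.084, SE 0.062, adjusted p = 0.678). MCM10 had 99.3, 87.4 and 86.8 CPM with asparagine and 112, 98.5 and 104 CPM without. Its response at 24 h was higher than at 6 h by 0.53 (SE 0.13, adjusted p = 0.0424), the 1 such difference among the 44 and at the edge of the threshold, where 0.195% of all genes had a higher and 1.03% a lower response. That call was lost in 9 of the 12 fits that left out 1 library, those without complete-vehicle 24 h replicate 2 or 3 or complete-vehicle 6 h replicate 1 or 3 or no-asparagine vehicle 24 h replicate 1 or 3 or no-asparagine vehicle 6 h replicate 1 or 2 or 3. CCNE1 (0.48, SE 0.15, adjusted p = 0.15) and RPA1 (0.31, SE 0.088, adjusted p = 0.118) had differences of the same sign that did not pass. The highest log2 fold change at 24 h was 0.42 in CCNE2 and the lowest -0.38 in the licensing factor CDT1. LIG1 (84.7, 96.8 and 99.1 against 93.7, 90.9 and 96.99 CPM) was, with CCNE1, nearest to no difference. Over the 44 genes the fold changes followed GC content with r = -0.73, and r = -0.12 after the trend was removed.

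ISRIB without asparagine at 24 h raised 9 of the 44 genes and lowered 5 against vehicle, with 10.1% of all genes higher and 11.6% lower. The 9 comprised MCM2 and MCM7 of the helicase, CDT1, GINS1, FEN1, RRM2, E2F1, the methylation-maintenance factor UHRF1 and the histone chaperone subunit CHAF1A. The 5 comprised RPA1, the large ribonucleotide reductase subunit RRM1, DNA ligase LIG1, ORC6 and the clamp loader subunit RFC3. The changes thus ran both ways within licensing (3 up, 1 down of 11), within the fork genes (1 up, 3 down of 16) and within nucleotide supply (1 up, 1 down of 4). The median over the 44 was 0.06, against 0.001 over all genes, and 0.046 with the GC trend removed. MCM2 had 169, 212 and 187 CPM in vehicle and 302, 260.3 and 310.5 CPM in ISRIB and rose by 0.62 (SE 0.14, adjusted p = 0.00267). MCM7 had 268, 299 and 271 CPM and 426, 388 and 431 CPM and rose by 0.57 (SE 0.12, adjusted p = 0.00139). CDT1, which loads the helicase, had 47.5, 65.01 and 52.05 CPM and 111, 82.8 and 112 CPM, and its rise of 0.89 (SE 0.23, adjusted p = 0.00867) was the largest of the 44. Every ISRIB library lay above every vehicle library in these 3 genes. MCM5, another helicase subunit, had 102, 121 and 99.2 CPM in vehicle and 114, 87.8 and 115 CPM in ISRIB, with overlap. UHRF1 had 48.5, 58.3 and 49.9 CPM and 75.95, 63.2 and 75.4 CPM and rose by 0.45 (SE 0.11, adjusted p = 0.00453). FEN1 had 138, 129.6 and 119 CPM and 164, 170.5 and 161 CPM and rose by 0.36 (SE 0.088, adjusted p = 0.00675). The other 4 rose by 0.57 (E2F1), 0.33 (CHAF1A), 0.32 (RRM2) and 0.27 (GINS1).

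Among the genes that fell, RPA1 had 191, 199 and 196 CPM in vehicle and 132, 147 and 146 CPM in ISRIB at 24 h without asparagine, a fall of 0.46 (SE 0.063, adjusted p = 2.86e-05). RRM1 had 179, 168 and 193 CPM and 112, 126 and 119 CPM and fell by 0.60 (SE 0.11, adjusted p = 0.000676). LIG1, which seals Okazaki fragments, had 93.7, 90.9 and 96.99 CPM and 73.2, 62.7 and 70.3 CPM and fell by 0.45 (SE 0.11, adjusted p = 0.00621). No ISRIB library reached the lowest vehicle library in any of the 3. ORC6 and RFC3 fell by 0.29 and 0.39. CLSPN, the checkpoint mediator Claspin, had 106, 88.4 and 100.2 and 90.8, 106 and 96.04 CPM, with overlap. With each library left out in turn, CDT1, FEN1, GINS1, LIG1, MCM2, MCM7, RPA1, RRM1 and UHRF1 passed every time, and the count of 14 became 9 without no-asparagine vehicle 24 h replicate 3. The treated and control libraries here are not the 3 of most negative GC slope, and without those 3 all 14 passed, with 20 in all. The share of all genes that passed without those 3 was not counted. The GC slopes of the libraries compared ran from -0.175 to 0.003 in vehicle and from -0.047 to 0.214 in ISRIB. Leaving out the 3 others does not remove that difference, and results with the trend removed are given below.

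RRM1 and RRM2 code for the subunits of 1 enzyme, and they moved apart. The ratio of RRM2 to RRM1 per exon length, a measure chosen after the values were seen, was 2.97, 3.01 and 3.09 in the libraries of ISRIB without asparagine at 24 h. It was 1.501 to 1.66 without asparagine in vehicle at 24 h, 1.45 to 1.53 in complete medium with vehicle and 1.31 to 1.53 in complete medium with ISRIB. At 6 h it was 2.42 to 2.65 in ISRIB without asparagine, 1.95 to 2.04 in vehicle without it, and 1.47 to 1.86 in the groups with asparagine. The ranges of the 2 ISRIB groups without asparagine thus overlapped with no other group, and neither did that of vehicle without asparagine at 6 h.

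**Figure D2:**
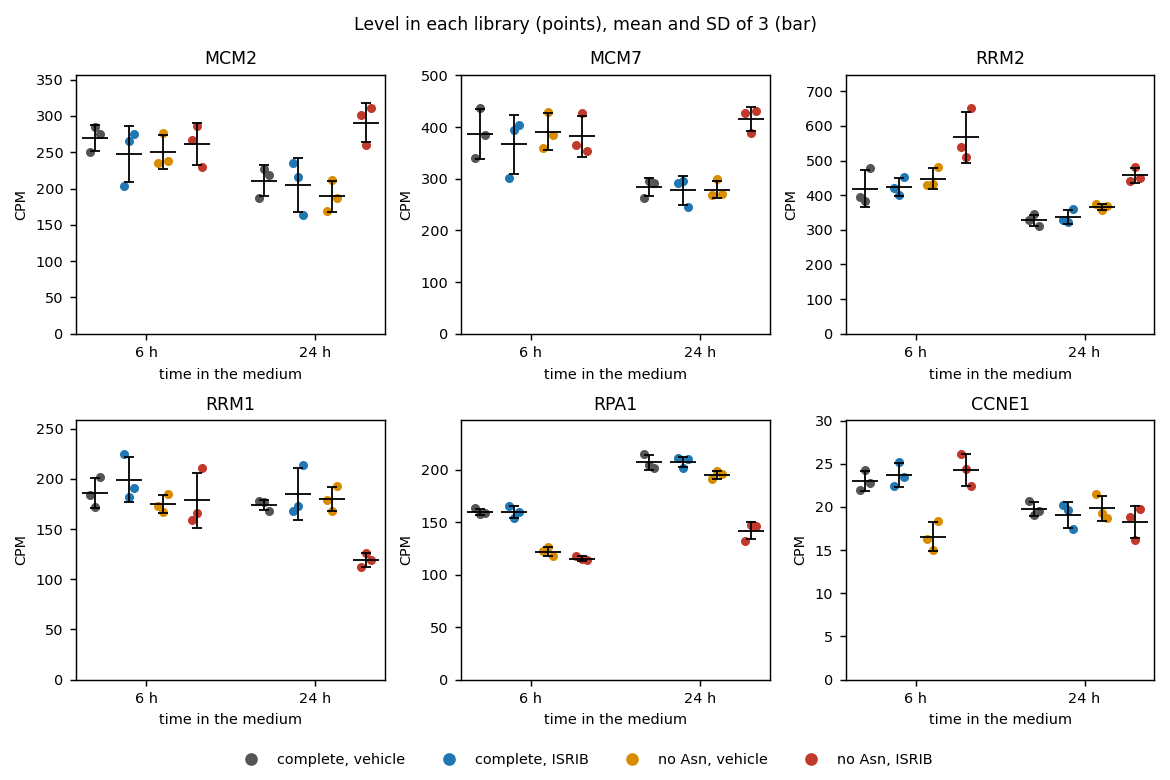
CPM of 6 genes in every library (points), with the mean and SD of the 3 libraries of a group as a bar, in 4 conditions at 6 h and 24 h; each axis starts at 0. RPA1 is lower without asparagine at both times in both drug groups, by least in vehicle at 24 h, where the difference did not pass the test, RRM1 is lowest and MCM7 is above the other 24 h groups in ISRIB without asparagine at 24 h, and CCNE1 is lowest in vehicle without asparagine at 6 h.

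Withdrawal in the presence of ISRIB at 24 h, which uses the same treated libraries against complete medium in ISRIB, gave 9 genes up and 5 down of the 44, where 9.97% and 12.2% of all genes rose and fell. RPA1 fell by 0.55 (SE 0.063, adjusted p = 2.25e-06) from 211, 202 and 210.2 CPM, and RRM1 by 0.64 (SE 0.11, adjusted p = 0.000304) from 168, 173 and 214 CPM. MCM7 rose by 0.58 (SE 0.12, adjusted p = 0.00106) from 293, 295 and 246 CPM and FEN1 by 0.45 (SE 0.088, adjusted p = 0.000925) from 116, 123 and 123 CPM. RRM2 had 328, 323 and 359 CPM with asparagine and 442, 481 and 449 CPM without (rose by 0.44, SE 0.094, adjusted p = 0.00186). GINS1, which joins the helicase with CDC45, had 79.1, 77.8 and 87.8 CPM and 100.5, 104 and 102 CPM (rose by 0.33, SE 0.071, adjusted p = 0.00231). CHAF1A had 57.5, 55.97 and 49.1 CPM and 76.8, 66.1 and 71.6 CPM (rose by 0.40, SE 0.097, adjusted p = 0.00524), and LIG1 fell by 0.44 (SE 0.11, adjusted p = 0.00611) from 98.3, 104 and 77.9 CPM. These 8 pairs of groups did not overlap, as was so for 21 of the 44, passed or not, and the share over all genes was not counted. The further rises were MCM2 (0.50), RFC4 (0.32), SLBP (0.27) and CDT1 (0.64), and the further falls RFC3 (-0.44) and ORC1 (-0.24). MCM4 (270.2, 275 and 272 against 255, 269.7 and 292 CPM) and CCNE2 (20.2, 19.9 and 24.9 against 19.8, 25.8 and 20.3 CPM) were nearest to no difference. In a fit of these 6 libraries alone 5 of the 44 passed, 3 up and 2 down. Complete-ISRIB 24 h replicate 3 is among the 3 low-slope libraries, and without them 13 of the 14 passed, CDT1 being the exception (0.39, adjusted p = 0.065). The responses to withdrawal in vehicle and in ISRIB at 24 h share no library. Withdrawal in ISRIB was not shown to differ between 24 h and 6 h for any of the 44 in edgeR's quasi-likelihood test (0, and 0 in DESeq2), where 0.718% of all genes had a higher and 1.95% a lower response at 24 h. At an unadjusted p below 0.05 there were 5 of the 44, against 18.0% of all genes. After removal of the GC trend 5 of the 44 passed, 2 with a higher and 3 with a lower response.

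**Figure D3:**
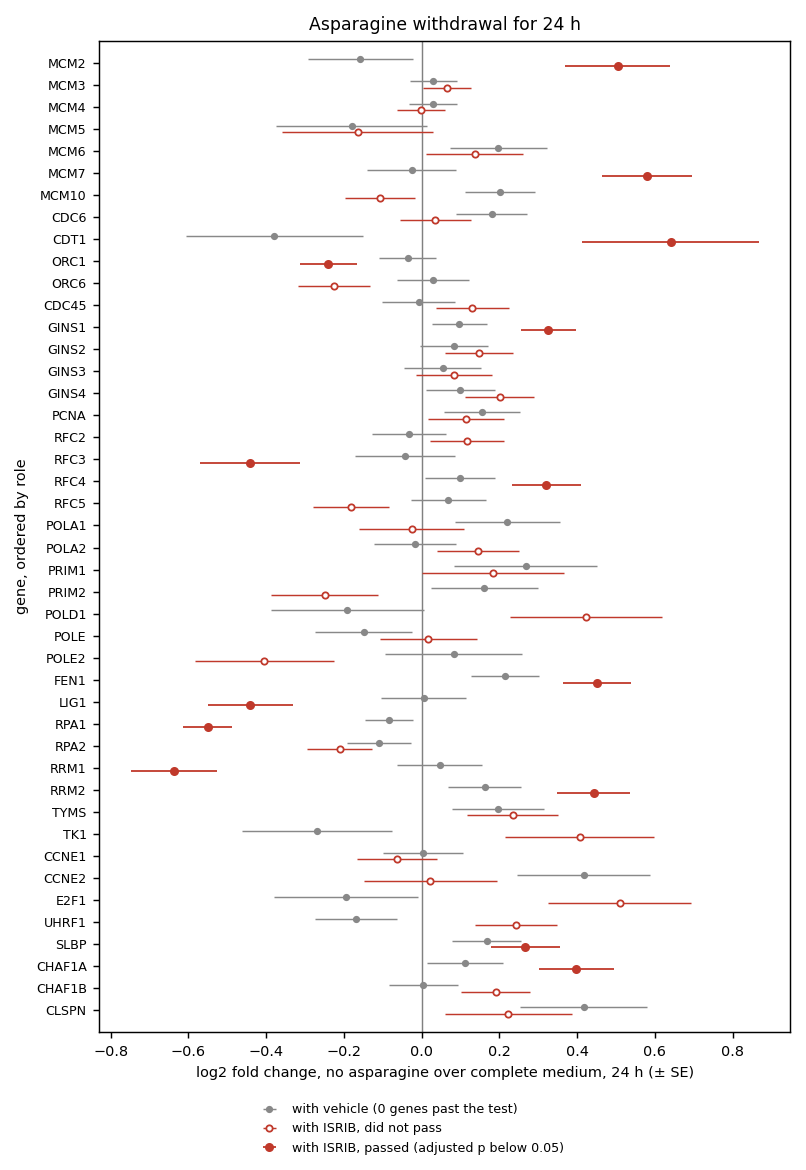
Log2 fold change of withdrawal at 24 h with its SE for each of the 44 genes, in vehicle (grey) and in ISRIB (red, filled where adjusted p was below 0.05); the 2 colours come from separate libraries. In vehicle 0 genes passed, and in ISRIB 9 passed above 0 and 5 below, with RRM1 at -0.64 and CDT1 at 0.64 as the extremes.

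The interaction at 24 h passed for 4 of the 44, with 2 responses higher and 2 lower in ISRIB, where 3.47% and 5.59% of all genes had a higher and a lower response, 9.06% in all. The number is thus near the background, and the 4 genes are described one by one. MCM2 (0.66, SE 0.19, adjusted p = 0.0336) and MCM7 (0.61, SE 0.16, adjusted p = 0.0243) were higher. RPA1 (-0.47, SE 0.088, adjusted p = 0.00229) and RRM1 (-0.68, SE 0.16, adjusted p = 0.00945) were lower. CDT1 had the largest difference, 1.02, and an adjusted p of 0.0502, which did not pass. LIG1 did not pass either (-0.45, SE 0.15, adjusted p = 0.0692). RPA1 and RRM1 passed with each of the 12 libraries left out in turn, while MCM2 and MCM7 did not pass without complete-vehicle 24 h replicate 2 or 3, no-asparagine ISRIB 24 h replicate 1 or 3 or no-asparagine vehicle 24 h replicate 1 or 3, where the count was 2. They also missed the threshold without complete-ISRIB 24 h replicate 3 (adjusted p = 0.093 for MCM2 and 0.0701 for MCM7), a library with a strongly negative GC slope. Without all 3 libraries of that kind, and with the GC trend removed, both passed. Without a filter on low counts RPA1 missed the threshold (-0.47, adjusted p = 0.0542).

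GC content moved with several of these differences. Over the 44 genes, the log2 fold change of ISRIB without asparagine at 24 h followed transcript GC content with r = 0.66, and that of the 24 h interaction with r = 0.75. The same was seen over all 17326 genes with a GC value (r = 0.40 and 0.46). These are correlations across genes that share libraries, given as a description. With the trend of each library removed r was 0.22 and 0.20. CDT1, at 65.8% GC, then rose by 0.45 in place of 0.89, E2F1 (62.5%) by 0.24 in place of 0.57, MCM2 (58.3%) by 0.40 in place of 0.62, and MCM7 (55.3%) by 0.43 in place of 0.57. All 4 passed (adjusted p = 2.4e-05, 0.0353, 6.47e-05 and 0.000157). FEN1 (0.23, adjusted p = 0.173), CHAF1A (0.15, adjusted p = 0.197) and ORC6 (-0.22, adjusted p = 0.0592) did not pass after it, so 11 of the 14 calls remained. RPA1, near the middle at 49.1% GC, was -0.47 after it and -0.46 before. LIG1, at 58.5% GC, went against the trend and was -0.68 after it. RRM1 (44.4% GC) was -0.50 and RRM2 (48.0%) 0.34. All 14 calls of withdrawal in ISRIB at 24 h and all 4 of the interaction at 24 h remained with the trend removed, beside 10 and 4 further ones. The share of all genes that passed with the trend removed was not counted, so the further ones are not read as particular to the 44.

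**Figure D4:**
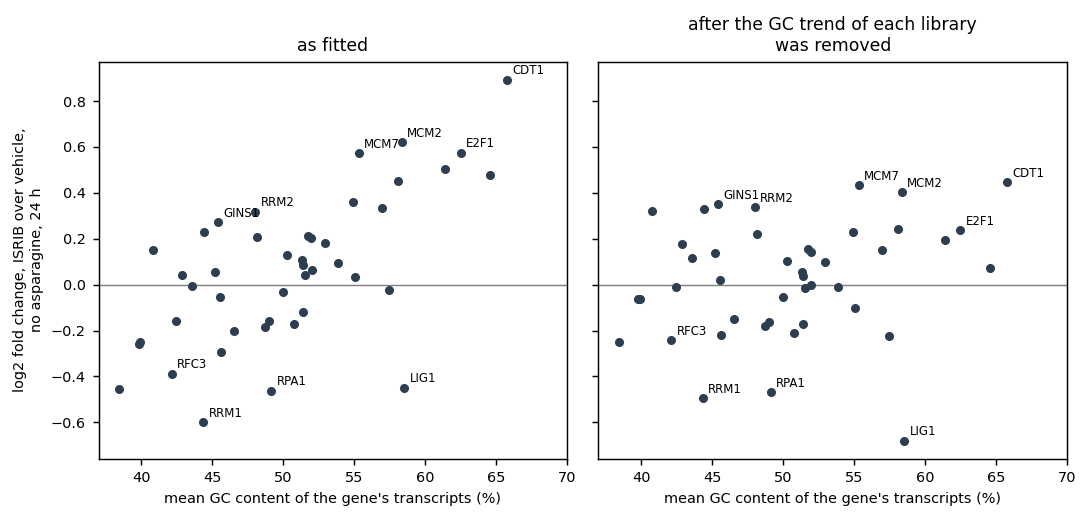
Log2 fold change of ISRIB against vehicle without asparagine at 24 h plotted on the mean GC content of a gene's transcripts, 1 point for each of the 44 genes, as fitted (left) and with the GC trend of each library removed (right). Removal of the trend lowers CDT1 from 0.89 to 0.45 and leaves RPA1 (-0.46 and -0.47) and RRM1 (-0.60 and -0.50) below 0.

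Time was compared within each medium and drug, 24 h against 6 h. Both times start with fresh medium and end at one endpoint, so hours since the change of medium and hours of treatment cannot be told apart. In complete medium with vehicle 2 of the 44 genes were higher at 24 h and 10 lower, against 9.34% and 9.47% of all genes. In complete medium with ISRIB, which shares no library with the former, 2 were higher and 9 lower, against 8.75% and 8.62%. RPA1 and RFC4 were higher in both, and MCM3, ORC6, CDC6, POLE, MCM7, RRM2 and FEN1 were lower in both. The share of all genes tested that passed in both was not counted, so this sharing is not read as particular to the 44. RPA1 rose by 0.37 (SE 0.062, adjusted p = 0.000249) in vehicle and 0.38 (SE 0.062, adjusted p = 0.000196) in ISRIB, where its values are given above. RFC4 had 56.3, 63.4 and 59.3 CPM at 6 h and 85.7, 75.2 and 76.8 CPM at 24 h in vehicle, and 65.4, 64.1 and 62.5 and 71.9, 78.4 and 88.8 CPM in ISRIB. It rose by 0.41 and 0.32 (adjusted p = 0.00277 and 0.0172). POLE, the catalytic subunit of the leading-strand polymerase epsilon, fell most. It had 95.7, 119 and 113 CPM at 6 h and 71.2, 84.97 and 78.99 CPM at 24 h in vehicle (fell by 0.48, SE 0.12, adjusted p = 0.00921), and 83.7, 116 and 109.8 and 79.9, 76.5 and 57.7 CPM in ISRIB (fell by 0.53, SE 0.12, adjusted p = 0.00455).

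The licensing genes MCM3, ORC6, CDC6 and MCM7 were also lower at 24 h in complete medium. In vehicle MCM3, a helicase subunit, had 181, 191 and 196 CPM at 6 h and 156, 164 and 156 CPM at 24 h (fell by 0.25, SE 0.061, adjusted p = 0.00584). ORC6, the smallest origin recognition subunit, had 61.4, 59.3 and 62.7 CPM and 49.1, 44.7 and 48.5 CPM (fell by 0.37, SE 0.092, adjusted p = 0.00772). CDC6, which loads the helicase with CDT1, had 169, 173 and 202 CPM and 153, 143 and 130.2 CPM (fell by 0.35, SE 0.092, adjusted p = 0.00914). MCM7 went from 341, 436 and 384 to 264, 296 and 293 CPM (fell by 0.45) and RRM2 from 394, 384 and 479 to 327, 344 and 312 CPM (fell by 0.35). In ISRIB the falls were 0.19 for MCM3 (179, 186 and 189.9 to 167, 159.9 and 158 CPM), 0.36 for ORC6 (56.3, 64.9 and 57.1 to 46.4, 42.7 and 49.7 CPM) and 0.31 for CDC6 (184, 186 and 194 to 141, 149.8 and 163 CPM). MCM7 fell by 0.40 there, from 301, 395 and 403 CPM at 6 h, and RRM2 by 0.33. GINS1 (81.95, 75.1 and 80.99 CPM at 6 h, 80.1, 75.5 and 81.7 CPM at 24 h) and TYMS (64.7, 56.5 and 52.6 CPM at 24 h) were nearest to no difference in vehicle, and ORC1 (81.8, 76.03 and 81.1 and 79.5, 78.8 and 81.5 CPM) and PCNA (474, 439 and 502 and 412, 445 and 531 CPM) in ISRIB. With each library left out, MCM3, ORC6, RFC4 and RPA1 passed every time in vehicle and POLE and RPA1 in ISRIB. The count of 12 in vehicle became 6 without complete-vehicle 6 h replicate 2 and 7 without complete-vehicle 24 h replicate 1 or 3 or complete-vehicle 6 h replicate 3. In ISRIB the count of 11 became 3 without complete-ISRIB 6 h replicate 3, 4 without complete-ISRIB 6 h replicate 2, 6 without complete-ISRIB 24 h replicate 2 or 3 and 7 without complete-ISRIB 24 h replicate 1, and 0 in a fit of those 6 libraries alone, while 8 of the 11 passed without the 3 low-slope libraries. The fit with the GC trend removed had 2 of the 44 higher and 15 lower in vehicle, with 11 of the 12 among them, and 3 higher and 15 lower in ISRIB, with 10 of the 11. FEN1 was the exception in both (adjusted p = 0.142 and 0.212).

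**Figure D5:**
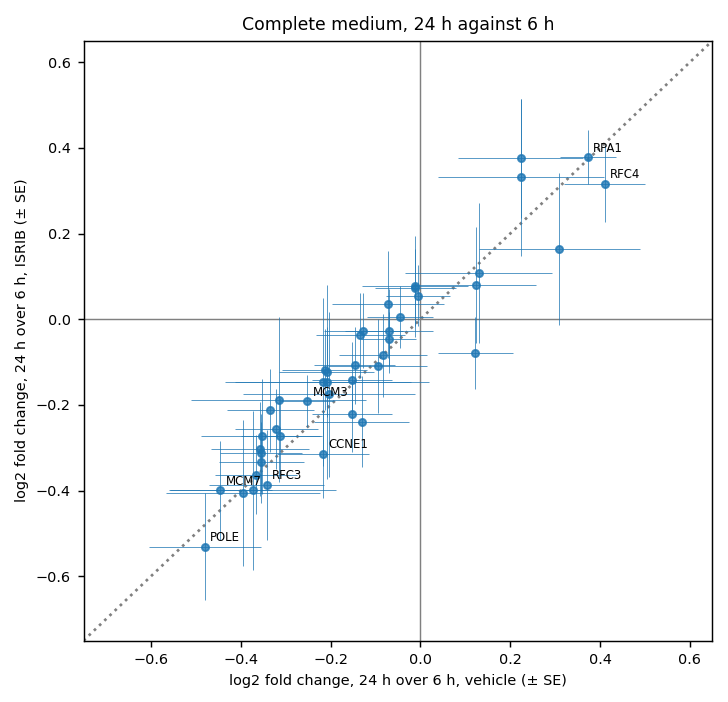
Log2 fold change from 6 h to 24 h in complete medium, vehicle on the horizontal axis and ISRIB on the vertical one, with SE, 1 point for each of the 44 genes; the dotted line is equality. The 2 axes come from separate libraries, and RPA1 (0.37 and 0.38) and POLE (-0.48 and -0.53) lie near the ends of the line.

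Without asparagine in vehicle 5 genes were higher at 24 h than at 6 h and 7 lower, against 12.2% and 13.2% of all genes. RPA1 rose by 0.68 (SE 0.063, adjusted p = 8.31e-08), from 122, 126 and 118 CPM to 191, 199 and 196 CPM. MCM10 rose by 0.38 (SE 0.09, adjusted p = 0.0035), from 76.2, 82.4 and 83.2 to 112, 98.5 and 104 CPM, and RPA2 by 0.33 (SE 0.084, adjusted p = 0.00559), from 17.1, 17.4 and 17.6 to 22.1, 23.2 and 20.3 CPM. These 3 are genes that had fallen on withdrawal at 6 h, and the libraries at 6 h are the same ones. PRIM2 (0.45) and GINS1 (0.23) rose as well. E2F1 fell by 0.64 (SE 0.19, adjusted p = 0.0144), from 93.5, 119.5 and 95.4 to 62.99, 75.1 and 60.2 CPM. MCM7 fell by 0.49 (SE 0.12, adjusted p = 0.00332), from 359, 430.1 and 386 CPM, and CDC45, the helicase cofactor, by 0.31 (SE 0.093, adjusted p = 0.0172), from 39.4, 41.4 and 43.3 to 32.8, 33.5 and 33.6 CPM. In MCM3 the fall was 0.20 (183, 185 and 193 to 163, 159.6 and 163 CPM) and in POLE 0.41 (87.9, 96.6 and 98.2 to 71.05, 74.9 and 66.1 CPM). RRM2 and MCM2 fell by 0.29 and 0.40. None of these 12 pairs of groups overlapped, but the groups did not overlap in 30 of the 44, passed or not. That share was not counted over all genes. MCM6 (163, 177 and 187 and 171, 175 and 189 CPM) and RRM1 (174, 167 and 185 CPM at 6 h) were nearest to no difference. MCM10, MCM7, RPA1 and RPA2 passed with each library left out, and the count of 12 became 7 without no-asparagine vehicle 24 h replicate 3. It was 21 with the GC trend removed, 22 without the 3 low-slope libraries and 19 in a fit of the 6 libraries alone. Shares of all genes in those fits were not counted.

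Without asparagine in ISRIB 3 genes were higher at 24 h and 14 lower, against 14.5% and 17.8% of all genes. ORC6 had the smallest adjusted p and fell by 0.72 (SE 0.093, adjusted p = 5.02e-06), from 62.4, 69.3 and 63.9 CPM to 36.5, 40.3 and 41.9 CPM. RFC3 fell most, by 0.76 (SE 0.13, adjusted p = 0.000138), from 75.8, 82.4 and 104 to 45.2, 59.01 and 50.8 CPM. RRM1 fell by 0.59 (SE 0.11, adjusted p = 0.000364) from 159.5, 166 and 210.4 CPM, and LIG1 by 0.51 (SE 0.11, adjusted p = 0.00112) from 101, 107 and 86.03 CPM. All libraries at 24 h lay below those at 6 h in these 4 genes. GINS3 fell by 0.44 (SE 0.099, adjusted p = 0.00176), to 30.4, 36.7 and 34.4 CPM, and CDC6 by 0.41 (SE 0.092, adjusted p = 0.00179), from 188, 204 and 225 to 144, 165 and 156 CPM. Both cyclins E fell, CCNE1 by 0.41 and CCNE2 by 0.65. MCM3, POLE, SLBP, RRM2, CDC45 and RFC5 fell by 0.25 to 0.49. RPA1 rose by 0.30 (SE 0.063, adjusted p = 0.00102), RFC4 by 0.41 (SE 0.09, adjusted p = 0.00152), from 71.3, 75.1 and 78.8 to 91.1, 106 and 101 CPM, and GINS1 by 0.25. PRIM2 (15.6, 17.7 and 24.1 and 19.1, 19.5 and 18.96 CPM) and POLA1, the catalytic subunit of the primase-polymerase (84.7, 83.2 and 126 and 91.9, 103 and 92.03 CPM), were nearest to no difference. With each library left out 12 of the 17 passed every time and 24 passed with the GC trend removed; in a fit of the 6 libraries alone 8 passed. MCM2, unlike MCM3, did not pass here, with 267, 287 and 229 CPM at 6 h and 302, 260.3 and 310.5 CPM at 24 h.

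Other genes of the pathway were taken from lists, with ISRIB without asparagine at 24 h as the comparison. Of 18 further genes of origin licensing and firing 2 rose and 4 fell. MCMBP, an MCM-binding protein, fell by 0.48 (SE 0.079, adjusted p = 0.000203) and DBF4, the activator of the CDC7 kinase, by 0.79 (SE 0.19, adjusted p = 0.00506), while the helicase RECQL4 rose by 0.70 (SE 0.19, adjusted p = 0.0117). Of 14 further genes of polymerases, clamp loaders and the lagging strand 3 rose and 2 fell, with RNASEH2A, the catalytic subunit of RNase H2, at 0.51 (SE 0.09, adjusted p = 0.000436). Nucleotide synthesis gave 3 up and 2 down of 16. IMPDH2 of guanine nucleotide synthesis rose by 0.47 (SE 0.076, adjusted p = 0.000172), DTYMK, which makes dTDP, by 0.56 (SE 0.12, adjusted p = 0.00266), and ATIC of purine synthesis fell by 0.31 (SE 0.058, adjusted p = 0.000801). Among 17 further E2F and pocket protein genes 2 rose and 4 fell, with E2F8 at 0.45 (SE 0.10, adjusted p = 0.00435), E2F5 at -0.89 (SE 0.16, adjusted p = 0.000708) and RBL2, which codes for p130, at -0.55 (SE 0.11, adjusted p = 0.00129). Of 15 G1 cyclins, CDKs and CDK inhibitors tested 3 rose and 1 fell, with CDK2, the partner of cyclin E, at 0.39 (SE 0.075, adjusted p = 0.000983), the CDK inhibitor CDKN2D at 0.88 (SE 0.20, adjusted p = 0.00348) and the S-phase cyclin CCNA2 at -0.42 (SE 0.10, adjusted p = 0.00546).

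Replication-coupled chromatin genes gave 1 up and 2 down of 9, replication stress genes 1 up and 3 down of 9, with HUS1 of the checkpoint clamp at -0.73 (SE 0.097, adjusted p = 2.28e-05), and mitosis and G2/M genes 2 up and 5 down of 31. FOXM1, a driver of mitotic genes, rose by 0.43 (SE 0.096, adjusted p = 0.00341), and TTK, a spindle checkpoint kinase, fell by 0.91 (SE 0.21, adjusted p = 0.00426). Of 10 histone genes listed only 6 were tested, so the list is covered in part. Of these 6, 3 rose, HIST1H2BK by 1.13 (SE 0.19, adjusted p = 0.000295), HIST2H2BE by 1.11 (SE 0.28, adjusted p = 0.00818) and HIST1H2BD by 0.81 (SE 0.26, adjusted p = 0.029). These lists, like the 44 genes, moved in both directions except the histones, and each share is to be read against the 10.1% and 11.6% of all genes. On withdrawal in vehicle at 6 h, where 3.31% of all genes rose and 1.26% fell, 5 genes of these lists passed. The CDK inhibitors CDKN2B (1.44, SE 0.14, adjusted p = 3.71e-07) and CDKN1B (0.43, SE 0.10, adjusted p = 0.0125) rose, 2 of 15 tested in their list. CDC25C, a phosphatase of mitotic entry (0.43, SE 0.13, adjusted p = 0.0498), rose as 1 of 31. DHODH of pyrimidine synthesis (-0.48, SE 0.14, adjusted p = 0.0456) fell as 1 of 16. SUPT16H, a subunit of the histone chaperone FACT (-0.22, SE 0.063, adjusted p = 0.0432), fell as 1 of 9. At 24 h in vehicle 0 genes of the lists passed. ISRIB without asparagine at 6 h, where 0.551% of all genes rose and 1.64% fell, changed 4 genes of the lists. It raised CDC25A, the phosphatase that activates CDK2, by 0.60 (SE 0.078, adjusted p = 2.97e-05), E2F8, a repressive E2F, by 0.58 (SE 0.11, adjusted p = 0.00199) and UMPS of pyrimidine synthesis by 0.38 (SE 0.098, adjusted p = 0.0408), and lowered CDKN1B by 0.46 (SE 0.10, adjusted p = 0.0131). CDC25A and CDKN1B were 1 up and 1 down of 15 tested in their list, E2F8 was 1 of 17 and UMPS 1 of 16. With so few calls, neither 6 h comparison is read as a change of a list. The 6 h comparisons share the vehicle libraries without asparagine.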

How the data were processed

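RNA-seq of PC9 cells was measured in 24 libraries, 8 groups of 3 biological replicates. The authors deposited whole-number read counts per gene, used here, and log2 values. Bowtie2, featureCounts and DESeq2 and the build hg38 are named per the submitters' processing notes. Their versions, the strand setting and the annotation are not given in the sources used here. Deposited log2 values served for 1 alternative only, a limma fit. Genes that failed the filter on low counts held 0.0751% to 0.0980% of counts and were set aside. Counts were scaled by TMM (factors 0.902 to 1.077), filtered with filterByExpr and fitted with edgeR 4.0.16 (R 4.3.3), quasi-likelihood test, 1 mean per group, all 24 libraries, 16 residual degrees of freedom. P-values were adjusted by Benjamini and Hochberg over 17409 genes, with a threshold of 0.05, for each of 16 comparisons. "Rose" and "fell" mean past that threshold. Depth was 16737384 to 27495861 counts. Gene lengths, overlaps and GC content came from GENCODE 29. The GC trend of a library was removed with a robust spline as an offset. DESeq2 1.42.0 and limma 3.58.1 were alternatives, and the code was tested on simulated data.

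The genes and lists were chosen with earlier results of these data known. In each comparison of 2 groups all library values are given for up to 8 genes that passed with the smallest adjusted p and 2 that did not with the largest p. Genes outside the lists' 3 smallest adjusted p are not named. PCNA as an example, and values of RPA1, CCNE1, MCM10, CCNE2, E2F1 and MCM2 given beside comparisons where this rule does not name them, were chosen after the values were seen. Replicates 1 to 3 of a group are compared as separate samples. Groups without overlap describe the values and add no support to a test that passed. On withdrawal in vehicle at 24 h, where 0 of the 44 passed, the groups of 13 did not overlap. For this and the other counts of groups without overlap, the share over all genes tested was not counted. Libraries with the same replicate number deviated together in all pairs, with correlations of 0.187 to 0.470, in 3 of 12 comparisons of 2 groups (withdrawal in vehicle at 6 h and at 24 h, and ISRIB without asparagine at 6 h), and not in the other 9. No 2 replicates of a group agreed within sampling noise (chi-square per degree of freedom 3.82 to 49.0 over 24 pairs).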

Additional observations from a re-analysis of the deposited data

Results flagged for a closer look

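At 24 h the response to asparagine withdrawal differed between ISRIB and vehicle, by a test of the interaction in edgeR, for 4 of the 44 genes, where it differed for 9.06% of all genes tested, so the number is near the background. The difference of the log2 fold changes was 0.66 for MCM2 (adjusted p = 0.0336), 0.61 for MCM7 (adjusted p = 0.0243), -0.47 for RPA1 (adjusted p = 0.00229) and -0.68 for RRM1 (adjusted p = 0.00945). The response of MCM10 to withdrawal in vehicle differed between the times, by 0.53 for 24 h minus 6 h (adjusted p = 0.0424), where 0.195% of all genes had a higher and 1.03% a lower response at 24 h.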

How the results depend on the processing

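Of 100 pairs of a gene and a comparison that passed, 27 passed under every alternative and omission tried and 0 changed direction. Except for DESeq2, the share of all genes tested that passed under an alternative or omission was not counted. The counts below are thus not read as particular to the 44. Without a filter on low counts the number of the 44 genes that passed was 1 for withdrawal in vehicle at 6 h, 2 for withdrawal in ISRIB at 6 h, 3 for ISRIB without asparagine at 6 h, 7 for the interaction at 24 h, 6 for time in complete medium with ISRIB, and 0 and 1 for the time difference of withdrawal in vehicle and in ISRIB. With the groups fitted alone it was 0 for withdrawal in ISRIB at 6 h, 5 for the same at 24 h, 0 for ISRIB without asparagine at 6 h, 0 for time in complete medium with ISRIB, and 19 and 8 for time without asparagine in vehicle and in ISRIB. With the GC trend removed it was 10 and 24 for withdrawal in ISRIB at 6 h and 24 h, 10 for ISRIB without asparagine at 6 h, 2 and 8 for the interaction at 6 h and 24 h, 18 for time in complete medium with ISRIB, 21 for time without asparagine in vehicle, and 4 and 5 for the time differences. With the GC trend removed and the replicate block it was 10, 24, 13, 3, 10, 19, 23, 4 and 5 in the same order, and 19 for time in complete medium with vehicle. The replicate block alone gave 7 for ISRIB without asparagine at 6 h and 1 for the time difference in ISRIB, and changed no other count by over 1.5 times. DESeq2 gave 8 for ISRIB without asparagine at 6 h, 1 for the interaction at 6 h and 2 for the time difference in vehicle. It called 544, 183 and 352 genes in all in these comparisons. Without the 3 low-slope libraries it was 1 for withdrawal in ISRIB at 6 h, 7 for the interaction at 24 h, 22 for time without asparagine in vehicle and 2 for the time difference in vehicle. With 1 library left out the count ran from 1 to 6 for withdrawal in vehicle at 6 h, 1 to 5 and 10 to 13 in ISRIB at 6 h and 24 h, 1 to 6 and 9 to 15 for ISRIB without asparagine at 6 h and 24 h, 2 to 6 for the interaction at 24 h, 6 to 12 and 3 to 15 for time in complete medium with vehicle and with ISRIB, 7 to 11 and 13 to 18 for time without asparagine in vehicle and in ISRIB, and 0 to 1 for both time differences. The cause of these changes was not tested. Fits with libraries left out also had fewer samples, and the count rose in some of them and fell in others.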
